A study of Mus musculus with 12 samples.

Results

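Leukocytes leave the blood by holding on to adhesion molecules of the vessel wall, and 9 genes of this system were followed in the aorta of mice under an aortic dissection challenge. The genes were Sele and Selp (E- and P-selectin), Selplg (the selectin ligand PSGL-1), Vcam1, Icam1 and Icam2 (ligands of leukocyte integrins), Pecam1 and Cdh5 (adhesion molecules of endothelial junctions) and Vwf (von Willebrand factor). A member was any probe that the scanner output names with one of these symbols, which gave 12 of 55681 probes and 9 of the 22765 genes tested. Vcam1, Selplg and Vwf had 2 probes each, and the brighter probe stood for the gene. Of the 9 members, 8 were well above background on all 12 arrays and only Sele was not.

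Total RNA from the aorta of male mice of mixed strain (129S5/SvEvBrd, C57BL6 and SJL) was hybridised to 12 one-colour microarrays, 3 in each of 4 groups. Every mouse, controls included, carried the floxed Socs3 alleles (Socs3fl/fl). Mice labelled smSocs3-KO also carried SM22-Cre, in which the promoter of the smooth muscle gene SM22 drives the recombinase, while littermates named WT had no Cre. For each genotype, 3 arrays came from mice that had no infusion ("before challenge") and 3 from mice given BAPN, an inhibitor of collagen and elastin cross-linking, at 150 mg/kg/day together with angiotensin II (AngII) at 1000 ng/kg/min for 3 days from osmotic minipumps ("day 3"). The labels do not say whether each array was a separate animal, so the p-values measure the spread between these arrays, which may be technical.

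Leukocyte recruitment proceeds in steps. Selectins on activated endothelium catch passing leukocytes through sugars carried by PSGL-1 and let them roll, VCAM-1 and the ICAMs then bind leukocyte integrins and hold the cell still, and PECAM-1 and VE-cadherin, the product of Cdh5, sit at the junctions through which it crosses. E-selectin and VCAM-1 are made on demand after stimulation by inflammatory cytokines, largely through NF-kB, whereas P-selectin and von Willebrand factor are also stored in the Weibel-Palade bodies of endothelial cells and in platelets.

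Upstream sequences are shown for the inducible genes, since Sele, Selp and Icam1 are known for control at their promoters, and these were the 3 members with an entry in the RefSeq promoter table (GRCm38.p6). Each is the 250 bases before the annotated start of the gene, on the plus strand. Capitals mark GGAAATTC on either strand (GAATTTCC when read on the other) and TATAAA.
Sele, chr1:164047984-164048233: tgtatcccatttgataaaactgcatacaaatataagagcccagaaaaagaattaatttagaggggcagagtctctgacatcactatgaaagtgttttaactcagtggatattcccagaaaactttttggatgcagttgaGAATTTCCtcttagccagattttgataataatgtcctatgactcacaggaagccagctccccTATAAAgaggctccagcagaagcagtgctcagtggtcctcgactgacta
Selp, chr1:164115014-164115263: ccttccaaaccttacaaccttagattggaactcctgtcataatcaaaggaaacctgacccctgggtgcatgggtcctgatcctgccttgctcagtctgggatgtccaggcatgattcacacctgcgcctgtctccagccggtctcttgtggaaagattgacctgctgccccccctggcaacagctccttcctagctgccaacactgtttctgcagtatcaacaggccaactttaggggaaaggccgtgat
Icam1, chr9:21015690-21015939: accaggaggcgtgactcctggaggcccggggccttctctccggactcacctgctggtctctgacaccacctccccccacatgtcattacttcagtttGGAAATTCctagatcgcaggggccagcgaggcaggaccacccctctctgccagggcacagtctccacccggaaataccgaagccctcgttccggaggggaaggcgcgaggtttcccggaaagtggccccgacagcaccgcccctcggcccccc
The loose NF-kB letters, GGG and CC with 5 bases of any kind between them, searched on both strands, were found once in each of the 3 windows, but 45.8% of 32851 promoter windows of the same length hold them. The stricter letters GGAAATTC, chosen after the windows had been read, were found in Icam1 on the plus strand and in Sele on the minus strand, and 0.782% of all windows hold them. TATAAA was found in Sele, ending 44 bases before the start, and in 12.4% of all windows. All shares count both strands. Matches are letters in a window and were not tested as binding sites.

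The measurement itself rests on probes of 60 bases, placed by the array's design on mouse build mm9. The 4 shown here hold coding sequence, and those of Vcam1 and Selplg are the second probes that serve as a check on the first.
Vcam1, chr3:115828953-115829012: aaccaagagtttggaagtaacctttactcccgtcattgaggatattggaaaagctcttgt
Icam1, chr9:20832290-20832349: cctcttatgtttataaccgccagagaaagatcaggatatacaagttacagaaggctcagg
Selplg, chr5:114269206-114269265: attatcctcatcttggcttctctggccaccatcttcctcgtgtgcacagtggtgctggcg
Pecam1, chr11:106540864-106540923: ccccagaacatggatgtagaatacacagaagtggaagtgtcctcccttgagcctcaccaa
The probe that stood for Vcam1 lies at chr3:115813216-115813275, that of Sele at chr1:165987726-165987785 and that of Selp at chr1:166079660-166079719.

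Levels are given as log2 of the processed signal minus the 75th percentile of the array, so 0 is the signal of a fairly bright probe and 1 unit is a doubling. A difference is a group mean minus another on that scale, with its standard error (SE) from a limma fit over all 12 arrays. A gene was called at a Benjamini-Hochberg adjusted p under 0.05 over all genes tested. Between 55.4% and 61.2% of the spots of an array were well above background and none was saturated. One slide held all 6 WT arrays together with replicate 1 labelled smSocs3-KO before challenge, and a second held the remaining 5. Genotype and slide could therefore not be told apart at day 3.

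Socs3, the targeted gene, did not read lower under the knockout label. It read 0.30, 0.32 and 0.75 in WT before challenge, 2.21, 2.30 and 0.64 in WT at day 3, 0.24, 1.14 and 1.46 in mice labelled smSocs3-KO before challenge and 3.31, 2.28 and 4.13 in those at day 3. At day 3 the label smSocs3-KO was 1.52 above WT (SE 0.535, limma adjusted p = 0.207). Which part of the gene the floxed allele removes is not given in the sources used here, so directions between genotypes are stated by label only. One array, WT day 3 replicate 4, stood near the unchallenged arrays for Socs3 and for several members, and results that rest on it are given with and without it.

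In the mean challenge response (6 arrays at day 3 against 6 before, both genotypes weighted equally), 4 of the 9 members passed, Vcam1, Selp, Selplg and Sele. Over all genes, 22.7% passed in that comparison, 59.6% of them upward. Of the 8 members measured on all arrays, 3 passed, Vcam1, Selp and Selplg, and these rose. Sele entered the test only through its signal at day 3, so it had to differ and its call adds no support. At an unadjusted p under 0.05, 6 of 9 members passed, against 39.1% of all genes. The median difference was 0.57 over the 9 members and 0.44 over the 8 measured on all arrays, with all genes at -0.05. Under the study's own rule (p under 0.01 and a change above 4-fold or below 0.25-fold) 1.27% of all genes passed, and of the members only Sele, whose fold has no measured baseline. Its folds against the detection floor, given with its values, are under 4-fold. No member separated all 6 arrays at day 3 from all 6 before challenge (8.03% of all genes did), and for Sele, Vcam1, Selp and Selplg the exception was WT day 3 replicate 4.

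**Figure D1:**
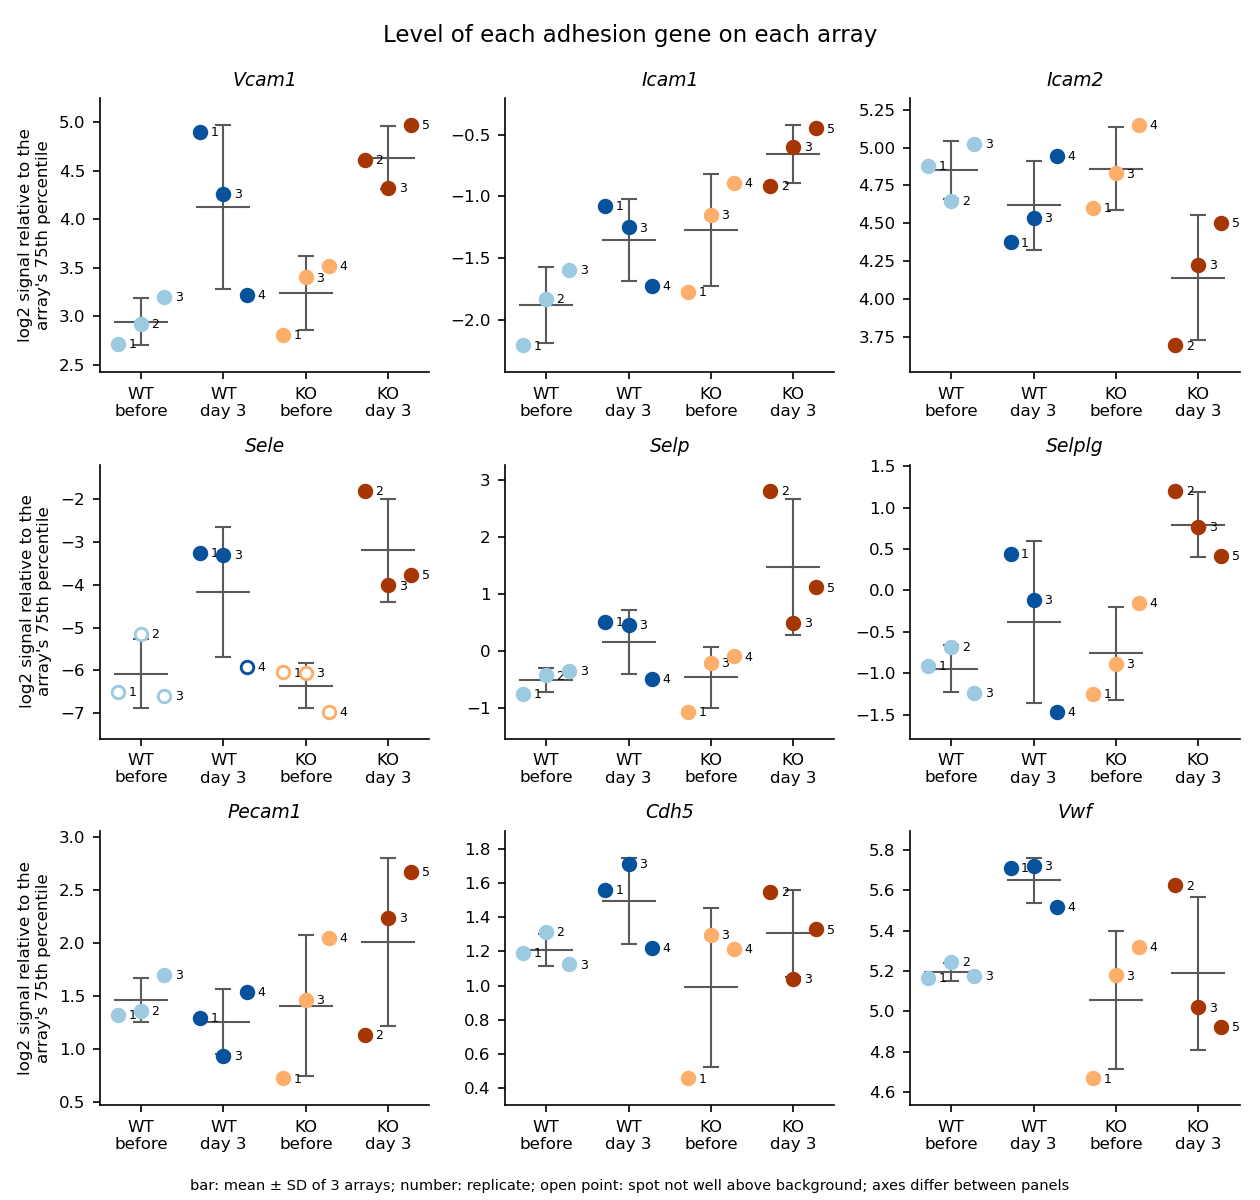
Level of each of the 9 genes on every array (vertical axis, log2 signal relative to the array's 75th percentile, with its own range in each panel) in the 4 groups (horizontal axis; KO stands for the label smSocs3-KO). Bars are the mean ± SD of 3 arrays, numbers are replicates and open points are spots not well above background: for Vcam1, WT day 3 replicate 4 at 3.22 sits with the unchallenged arrays while the other 5 arrays at day 3 lie at or above 4.26, and all 6 unchallenged points of Sele are open.

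Sele, the selectin that endothelium makes on demand, was well above background on none of the 6 arrays before challenge and on 5 of the 6 at day 3. At day 3 the signal was -3.25 and -3.31 on WT replicates 1 and 3, and -5.92, not above background, on replicate 4. On the arrays labelled smSocs3-KO it was -1.80, -4.01 and -3.76, all above background. Against the detection floor of the unchallenged arrays, the day 3 mean labelled smSocs3-KO was 2.48-fold higher with the main background subtraction. That floor ran from -4.91 to -3.85 over the unchallenged smSocs3-KO arrays. Replicate 3 at day 3, at -4.01, lay below the highest floor, and replicate 2, at -1.80, raised the mean. The WT mean at day 3 was 1.13-fold above its floor, with replicate 4 itself below background. Both values set the mean of the challenged arrays against the lowest signal that still counted as above background on each unchallenged array. That signal is the lowest of any probe and not a limit for Sele, so neither value is a strict bound. The limma adjusted p of the mean challenge response was 0.0118, but the fit rests on unchallenged signals below background. No measured size of the change can be given. With normexp background correction the call was lost (difference 0.40, adjusted p = 0.161). The difference labelled smSocs3-KO was then 0.51, smaller than the 2.48-fold value, so that value depends on how background was subtracted.

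Selp, the stored selectin of endothelium and platelets, read -0.76, -0.43 and -0.36 in WT before challenge and 0.51, 0.46 and -0.49 at day 3. The arrays labelled smSocs3-KO read -1.08, -0.22 and -0.10 before challenge and 2.81, 0.49 and 1.11 at day 3. The WT groups overlapped through replicate 4, while under the label smSocs3-KO all 3 challenged arrays lay above all 3 before challenge. In the mean challenge response Selp rose 2.47-fold (1.31 ± 0.369, log2 difference ± SE, adjusted p = 0.0299). Separately, the difference was 0.68 in WT (adjusted p = 0.425) and 1.94 under the label smSocs3-KO (adjusted p = 0.0715), and neither passed. The call was lost with slide as a block (1.15, adjusted p = 0.0624).

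Selplg, which leukocytes carry and which endothelium largely does not, read -0.92, -0.68 and -1.24 in WT before challenge and 0.44, -0.11 and -1.47 at day 3. Those labelled smSocs3-KO read -1.25, -0.89 and -0.15 before challenge and 1.20, 0.76 and 0.42 at day 3. WT day 3 replicate 4 was the lowest of all 12 arrays, and the 5 other challenged arrays were the highest. The mean challenge response was a 2.08-fold rise (1.06 ± 0.317, adjusted p = 0.0363). The second probe, whose sequence is printed above, gave 0.47 (adjusted p = 0.135 in a fit over all kept probes), so the 2 probes of the gene differed in size and in call. With slide as a block the difference was 0.94 (adjusted p = 0.0751).

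Vcam1, the ligand of the integrin VLA-4, rose in the mean challenge response on both of its probes. It read 2.71, 2.92 and 3.20 in WT before challenge and 4.90, 4.26 and 3.22 at day 3. On the arrays labelled smSocs3-KO it read 2.81, 3.40 and 3.52 before challenge and 4.61, 4.32 and 4.97 at day 3. Within each genotype the groups did not overlap, although WT day 3 replicate 4, at 3.22, lay next to the highest WT array before challenge, at 3.20. The mean challenge response was 2.44-fold (1.29 ± 0.266, adjusted p = 0.0107), with 2.27-fold in WT (adjusted p = 0.084) and 2.62-fold under the label smSocs3-KO (adjusted p = 0.0724). The second probe gave 1.06 (adjusted p = 0.00691 in a fit over all kept probes) for the mean and 1.18 (adjusted p = 0.043) under the label smSocs3-KO, where it passed. With slide as a block the mean response of the first probe was 1.18 (adjusted p = 0.0232).

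Icam1, the ligand of the integrins LFA-1 and Mac-1, missed the threshold. It read -2.21, -1.83 and -1.60 in WT before challenge and -1.08, -1.25 and -1.72 at day 3. The arrays labelled smSocs3-KO read -1.78, -1.15 and -0.89 before challenge and -0.92, -0.60 and -0.45 at day 3. Both pairs of groups overlapped, and the mean challenge response was 0.57 ± 0.19 (adjusted p = 0.0515). The 95% confidence interval of that difference ran from 0.15 to 0.99.

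Icam2, which resting endothelium carries all the time, was the one member with a lower mean at day 3 in both genotypes. It read 4.88, 4.65 and 5.03 in WT before challenge and 4.37, 4.53 and 4.95 at day 3. Under the label smSocs3-KO the values were 4.60, 4.83 and 5.15 before challenge and 3.69, 4.23 and 4.51 at day 3. The groups labelled smSocs3-KO did not overlap and the WT groups did. The mean challenge response was -0.48 ± 0.173 (adjusted p = 0.0679), which did not pass.

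The junction molecules and Vwf gave no call. Pecam1 had group means of 1.46 in WT before challenge, 1.25 in WT at day 3, 1.41 under the label smSocs3-KO before challenge and 2.01 at day 3, with a mean response of 0.20 (95% confidence interval -0.43 to 0.83). Cdh5 stayed between 0.46 and 1.71 over all 12 arrays and had a mean response of 0.30 (-0.07 to 0.67). Vwf lay between 4.67 and 5.72, with a mean response of 0.29 (-0.05 to 0.64). In Vwf the 3 WT arrays at day 3 (5.71, 5.72 and 5.52) were above the 3 before challenge (5.17, 5.24 and 5.18), while the arrays labelled smSocs3-KO overlapped. The second Vwf probe gave a mean response of 0.37, also without a call. A change in the number of endothelial cells and a change in RNA per cell cannot be told apart in bulk tissue. The same holds for the leukocytes that carry Selplg.

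**Figure D2:**
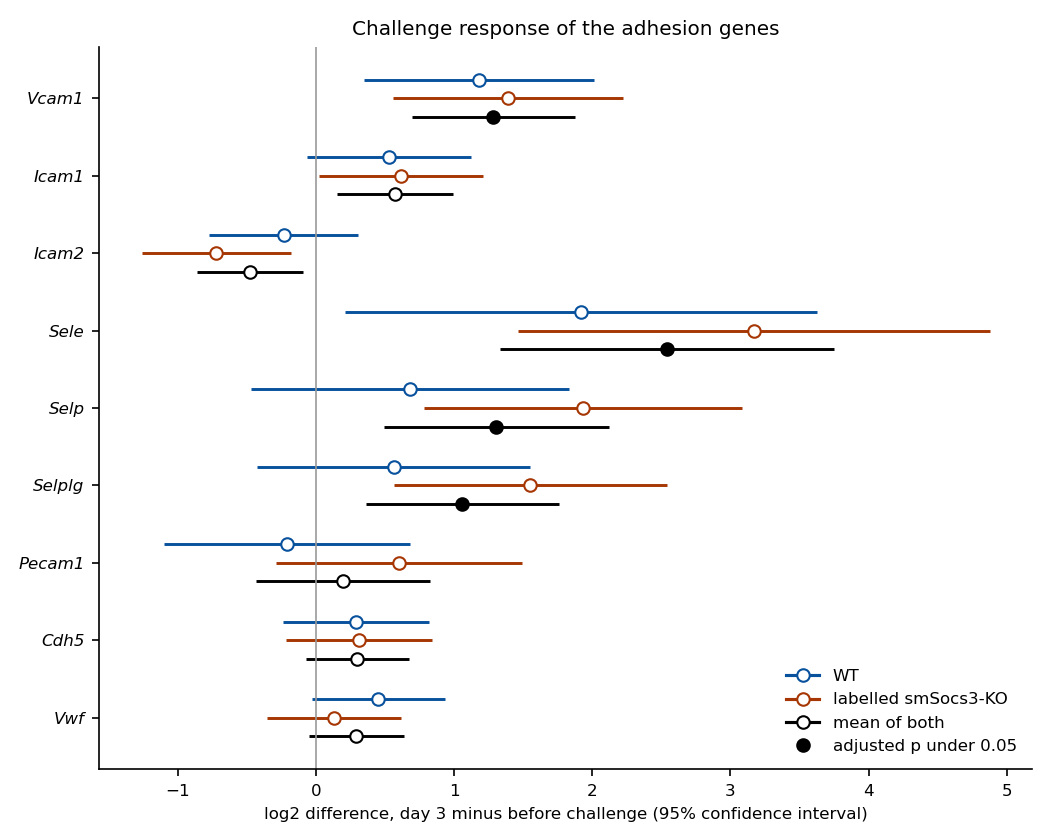
Log2 difference between day 3 and before challenge (horizontal axis, with its 95% confidence interval) for each of the 9 genes in WT, under the label smSocs3-KO and as the mean of both. Filled points passed at an adjusted p under 0.05, which only the mean response of Vcam1, Sele, Selp and Selplg did, with the Sele values resting on unchallenged signals below background.

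Taken genotype by genotype, no member passed. In the WT challenge response 0 of 9 were called (4.68% of all genes were), 2 had an unadjusted p under 0.05, Vcam1 and Sele (26.6% of all genes), and 2 had groups that did not overlap, Vcam1 and Vwf (35.3%). None met the study's rule there (1.28%). Under the label smSocs3-KO, limma again called 0 of 9 (2.45%), with 6 at an unadjusted p under 0.05, Vcam1, Icam1, Icam2, Sele, Selp and Selplg (23.8%), and 5 with groups apart, Vcam1, Icam2, Sele, Selp and Selplg (28.1%). The study's rule (1.63% of all genes) was met there by no member measured on all arrays, and by Sele only against a baseline below background. The values and counts of Sele in these comparisons share that limit. The median over the 9 members was 0.53 in WT, with all genes at -0.02, and 0.62 under the label smSocs3-KO, with all genes at -0.06. Both comparisons enter the mean response, so the 3 sets of values are not independent.

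Without WT day 3 replicate 4, limma called Vcam1 in the WT response (1.63, adjusted p = 0.0071), and the adjusted p of Sele, against a baseline below background, was 0.0193. The response labelled smSocs3-KO kept its differences, since it holds none of that array, but its limma adjusted p, which shares the spread of all groups, was 0.0144 for Vcam1, 0.0127 for Sele, 0.0445 for Selp and 0.0181 for Selplg. Over all genes the count went from 1065 to 3627 in WT and from 557 to 1918 under the label smSocs3-KO. Within the second slide alone, where 2 arrays before challenge face 3 at day 3, the response labelled smSocs3-KO was 1.17 for Vcam1, 1.63 for Selp, 1.31 for Selplg, 0.37 for Icam1 and -0.85 for Icam2.

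Markers of some leukocytes rose in the mean challenge response, and those of lymphocytes did not. In that comparison 22.7% of all genes were called, the share to set beside each list count below. Of 6 pan-leukocyte markers (Ptprc, Coro1a, Laptm5, Arhgdib, Cd53 and Vav1), 6 rose in the mean challenge response, with a median difference of 1.17, and each was above background on all 12 arrays. Before challenge their summed level was 3.58 to 3.89 in WT and 3.83 to 4.30 under the label smSocs3-KO. At day 3 it was 3.79 to 5.28 in WT and 5.11 to 5.78 under the label smSocs3-KO. The lowest of the challenged values, 3.79, was WT day 3 replicate 4. Among macrophage markers 6 of 7 tested rose (median 1.18). Among 4 tested neutrophil markers Ly6g rose (1.23 ± 0.187, adjusted p = 0.00511) and the other 3 were not called. The median of the 4 was 0.21 in WT and 2.47 under the label smSocs3-KO. Their summed level was 8.22 to 8.60 in WT before challenge and 7.78 to 8.59 at day 3. Under the label smSocs3-KO it was 7.56 to 8.70 and 7.61 to 7.85, so the ranges overlapped in both genotypes. A sum of signals is set mostly by its brightest gene and did not follow the median here. The overlap therefore does not show that the 4 markers were unchanged. Mmp8, Retnlg and Cxcr2 had no probe that passed the filter on dim probes. Of 7 T and B lymphocyte markers tested, 0 rose and Cd3d fell (-1.50, adjusted p = 0.0161), with a median of -0.44. Of 8 smooth muscle markers, Myh11 and Myocd fell, 0 rose, and the median was -0.42. The part of leukocyte and smooth muscle content in the differences of Selplg, Vcam1 and the selectins was not tested.

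**Figure D3:**
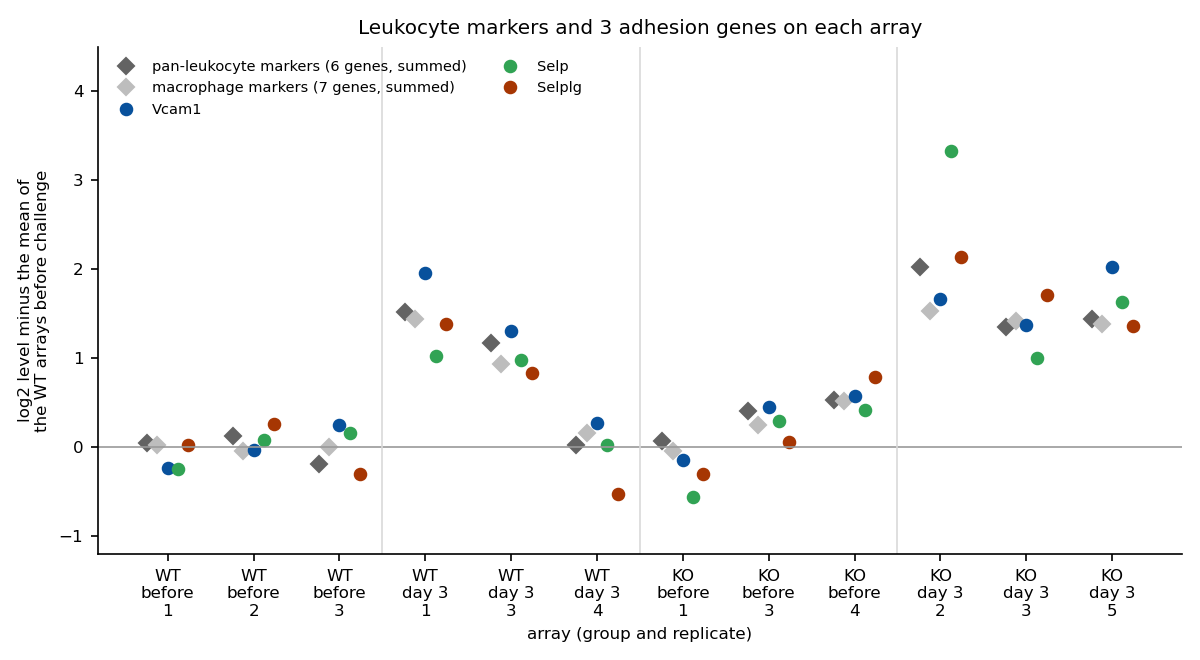
Level on each array minus the mean of the 3 WT arrays before challenge (vertical axis, log2) for Vcam1, Selp, Selplg and the summed signal of 6 pan-leukocyte and 7 macrophage markers, by group and replicate (horizontal axis; KO stands for the label smSocs3-KO). All 5 series lie above every unchallenged array on 5 of the 6 arrays at day 3, and on WT day 3 replicate 4 they lie within or below the range of the unchallenged arrays.

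Among other endothelial genes the share called was near that of all genes, which was 22.7% in this comparison. Of 21 further endothelial markers, 4 rose in the mean challenge response, Ecscr, Eng, Emcn and Procr, 0 fell, and the median was 0.29 (all genes -0.05). Tek (-0.47, adjusted p = 0.169) and Erg (-0.33, adjusted p = 0.0625) were among those with lower values. Ecscr, an endothelial surface protein, rose by 0.81 ± 0.177 (adjusted p = 0.0121) and Eng, a co-receptor for TGF-beta, by 0.68 ± 0.153 (adjusted p = 0.0138). Before challenge the summed level of the 21 markers spanned 7.23 to 7.32 in WT and 6.96 to 7.59 under the label smSocs3-KO, and at day 3 it spanned 7.22 to 7.59 and 7.32 to 7.76. The ranges at day 3 overlapped those before challenge within each genotype. Of the 5 lymphatic markers, 3 were tested, and Lyve1 and Pdpn, which macrophages and stromal cells also carry, rose while Flt4 read -0.24 (adjusted p = 0.634).

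Counterparts of the members on leukocytes were called at a share near that of all genes. Of 11 leukocyte integrin and homing genes, 10 were tested and 2 rose in the mean challenge response, where 22.7% of all genes were called. The list's median was 0.32, with all genes at -0.05. Itgb2, the beta chain of LFA-1 and Mac-1 and so of the receptors of Icam1, rose by 1.68 ± 0.295 (adjusted p = 0.00707) and was also called under the label smSocs3-KO alone (1.92, adjusted p = 0.0428). Cd44, a receptor for hyaluronan that can also carry selectin ligands, rose by 1.12 ± 0.248 (adjusted p = 0.0128). Itga4, the alpha chain of the Vcam1 receptor, had a difference of 0.20 (adjusted p = 0.45). Itgal, the alpha chain of LFA-1, had one of 0.05 (adjusted p = 0.866), and Itgam, that of Mac-1, one of -0.31 (adjusted p = 0.413). The Itgam probe read between 6.38 and 8.22 over all 12 arrays, unchallenged ones included, while Itgb2, its beta chain, read between -1.56 and 1.31. Whether the Itgam probe reports that gene alone was not tested, so its difference may not be that of the Mac-1 alpha chain.

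Enzymes that build selectin ligands were tested for 9 of 9, and 3 rose (median 0.38). B4galt1, a galactosyltransferase, rose by 0.72 ± 0.159 (adjusted p = 0.013). St3gal4, a sialyltransferase of the sialyl Lewis x group, rose by 0.97 ± 0.261 (adjusted p = 0.0253), and the third was Tpst2, which sulfates the tyrosines of PSGL-1 (0.38, adjusted p = 0.0342). Fut7, the fucosyltransferase most tied to selectin binding in leukocytes, had a difference of -0.36 (adjusted p = 0.216).

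Among 9 other endothelial adhesion molecules tested, Cx3cl1, the membrane-bound chemokine fractalkine, rose (0.65 ± 0.167, adjusted p = 0.0222), and the median was -0.19. Madcam1, the endothelial ligand bound by gut-homing lymphocytes, read -0.32 (adjusted p = 0.127) and Cd34, a sialomucin, 0.10 (adjusted p = 0.666). Of 17 genes of endothelial junctions and transmigration, Jam2, a junctional adhesion molecule, rose (1.08 ± 0.203, adjusted p = 0.00815) and Pkp4, a plakophilin, fell (-1.05 ± 0.24, adjusted p = 0.0145). Jam2 was the only one of these called in WT alone (1.32, adjusted p = 0.0363). The list's median was -0.01, near that of all genes, and Cldn5, Esam, Ctnnb1 and Ptprb were not called.

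Genes tied to the stores of Selp and Vwf gave 2 calls among 7 tested (median 0.25). Cd63, a tetraspanin of the Weibel-Palade body that many other cells also make, rose by 0.60 ± 0.131 (adjusted p = 0.0124) and Plat, tissue plasminogen activator, by 0.80 ± 0.237 (adjusted p = 0.0346). Of 10 platelet and megakaryocyte markers tested, Pf4, which macrophages also express, rose (0.75 ± 0.172, adjusted p = 0.0143) and the other 9 did not pass. Their median was 0.48. Before challenge their summed level was 5.23 to 5.75 in WT and 5.18 to 5.73 under the label smSocs3-KO, and at day 3 it was 5.55 to 5.95 and 5.15 to 6.00, so the ranges overlapped. The part of platelet RNA in the signal of Selp was not tested.

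Upstream of the inducible members, 12 genes of NF-kB subunits and of its feedback were tested, and 2 passed (median 0.17). The 2 were a feedback gene that rose and a subunit that fell. Of all genes, 22.7% passed. Nfkbie, an inhibitor of NF-kB and itself one of its targets, rose by 0.77 ± 0.211 (adjusted p = 0.0266), and Rela, the p65 subunit, fell by 0.37 on the log2 scale (SE 0.115, adjusted p = 0.0406). Nfkbia had a difference of 0.20 (adjusted p = 0.411) and Tnfaip3 of 0.08 (adjusted p = 0.824). Among inducing cytokines and receptors 4 of 7 tested rose, Il4ra, Tnfrsf1b, Il6 and Tnfrsf1a (median 1.27). The 2 with the smallest p were Il4ra, the receptor chain for IL-4 and IL-13, which are inducers of Vcam1 (2.48 ± 0.461, adjusted p = 0.00804), and Tnfrsf1b, a TNF receptor (1.44 ± 0.268, adjusted p = 0.00804). Tnf, Il1a, Il4, Il13, Ifng and Csf3 had no probe above background on all arrays of any group, and Il1b had a difference of 1.27 (adjusted p = 0.222).

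**Figure D4:**
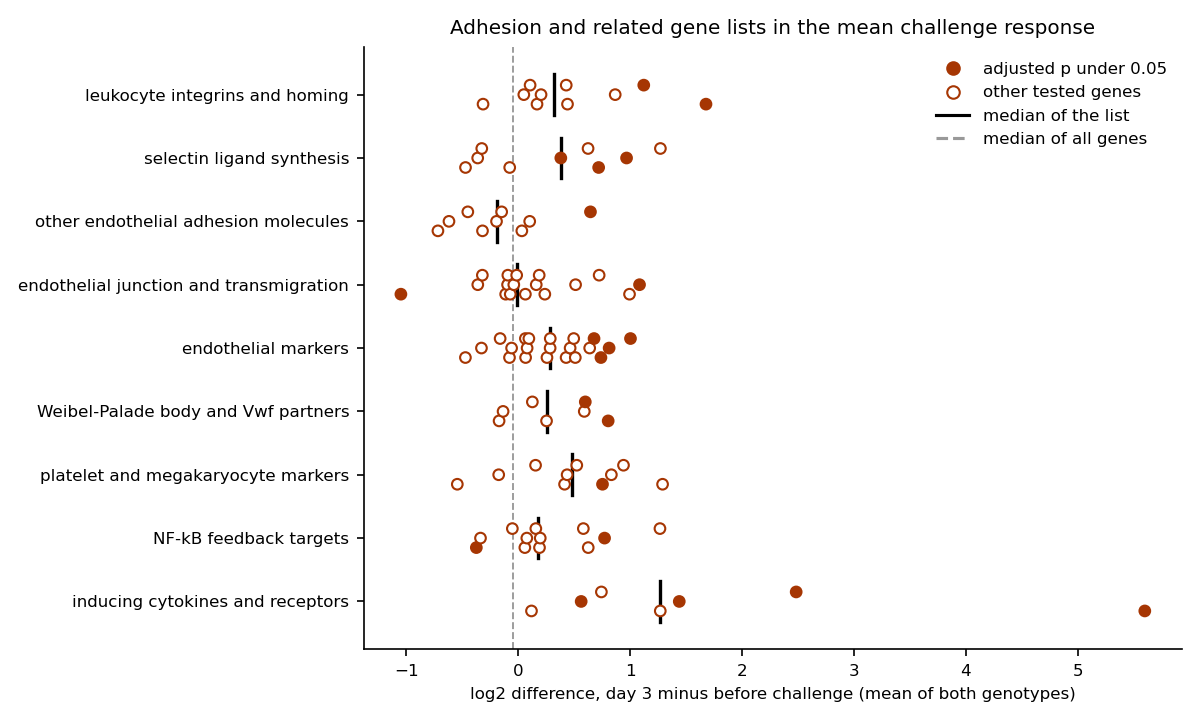
Log2 difference between day 3 and before challenge, mean of both genotypes (horizontal axis), for every tested gene of 9 lists (vertical axis). Filled points passed at an adjusted p under 0.05, black bars are list medians and the dashed line is the median of all genes at -0.05, and the list of cytokines and receptors has the highest median, 1.27, and the list of other endothelial adhesion molecules the lowest, -0.19.

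Between genotypes no member was called. Before challenge, limma called 0 of 9 (0.0264% of all genes) and 1, Icam1, had an unadjusted p under 0.05 (0.61, 4.4% of all genes), with 0 of 9 having groups apart (11.1%). At day 3 it called 0 of 9 (1.11%), 3 had an unadjusted p under 0.05, Icam1, Selp and Selplg (16.2%), and Icam1 alone had groups apart (20.5%). The differences at day 3, labelled smSocs3-KO minus WT, were 0.70 for Icam1 (95% confidence interval 0.10 to 1.29), 1.31 for Selp (0.16 to 2.46), 1.17 for Selplg (0.18 to 2.16) and 0.51 for Vcam1 (-0.32 to 1.34). Sele gave 0.97 (-0.74 to 2.68), Pecam1 0.76, Cdh5 -0.19, Icam2 -0.48 and Vwf -0.46.

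Slide changed these values. With slide as a block, an adjustment that rests on the single smSocs3-KO array of the first slide, the differences at day 3 became -0.06 for Icam1, 0.39 for Selp, 0.44 for Selplg, -0.14 for Vcam1 and -0.27 for Pecam1. Cdh5 went to -0.99, Vwf to -1.04 and Icam2 to -0.87, while Sele went from 0.97 to 1.44, by way of unchallenged signals below background. None passed in that fit either. Before challenge, the first slide alone set 1 array labelled smSocs3-KO against 3 WT arrays and gave 0.10 for Icam1 and -0.14 for Vcam1. Without WT day 3 replicate 4, the difference at day 3 was 0.05 for Vcam1, 0.09 for Sele, 0.99 for Selp and 0.63 for Selplg. Selp also rested on smSocs3-KO day 3 replicate 2, without which the difference at day 3 was 0.64 for Selp and 0.27 for Sele, and the response of Selp labelled smSocs3-KO went from 1.94 to 1.27.

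**Figure D5:**
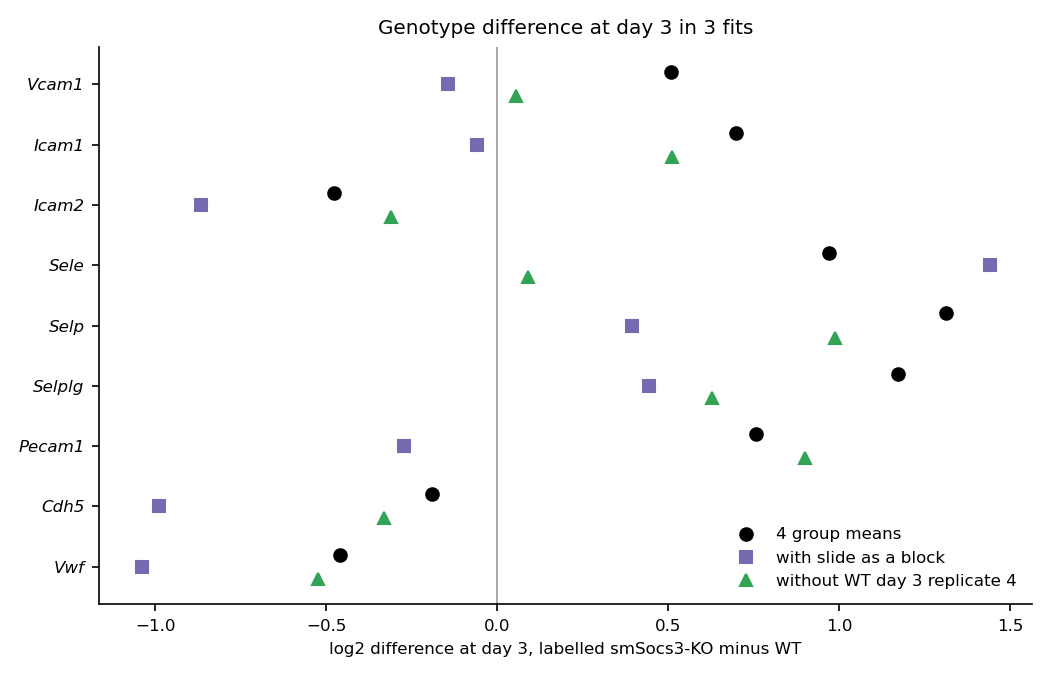
Log2 difference at day 3, labelled smSocs3-KO minus WT (horizontal axis), for each gene with 4 group means, with slide as a block and without WT day 3 replicate 4. No value passed in any of the 3 fits, and Icam1, Vcam1 and Pecam1 change sign when slide enters the fit while Selp moves from 1.31 to 0.39.

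The interaction asks whether the response under the label smSocs3-KO differed from that in WT. It was called for 0 of 9 members and 0% of all genes, and at an unadjusted p under 0.05 for 0 of 9 (5.34% of all genes). It was 1.26 for Selp (-0.37 to 2.88), 0.99 for Selplg (-0.41 to 2.39) and 0.81 for Pecam1 (-0.45 to 2.07). No value is given for Sele, whose unchallenged arrays were all below background. Vcam1 (0.21, -0.96 to 1.39) and Icam1 (0.09, -0.75 to 0.93) had intervals as wide as their responses, so neither a like nor an unlike response was shown. Among markers of other cells, 2 of 6 fibroblast genes were called between genotypes at day 3, Pi16 (1.64, adjusted p = 0.0467) and Dpt (1.99, adjusted p = 0.023), and the median of the 6 was 0.39. With slide as a block 0 of all genes were called in that comparison, against 253 without it. The 5 mesothelial markers gave no call, with a median difference between genotypes of 2.12 before challenge and 2.62 at day 3. Their part in the genotype differences was not tested.

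In the order of group means, Vcam1, Selp and Selplg ran from WT before challenge through smSocs3-KO before challenge and WT at day 3 to smSocs3-KO at day 3, and Icam1 had the middle pair the other way round. All neighbouring groups in the order overlapped, for all 9 members, except WT before challenge and WT at day 3 for Vwf. The genes whose 12 values ran most like a member's, by Pearson r among 15703 genes with a symbol, were Plek (0.986) and Nme1 (0.981) for Vcam1, Irf5 (0.977) and Sash3 (0.971) for Selplg, and Fgr (0.972) and Rab3il1 (0.948) for Selp. For Sele they were Thy1 (0.963) and Ptger1 (0.956), for Icam1 Sumo3 (0.962) and Rab13 (0.96), and for Icam2 Cdc23 (0.932) and Crybg3 (0.901). Cdh5 ran most like Arap3 (0.937) and Sox7 (0.927), Vwf like Pdgfb (0.931) and Rcan3 (0.925), and Pecam1 like Eid2 (0.934) and Med20 (0.929). These are the highest of many correlations over 12 arrays that share group and slide, given as a description.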

How the data were processed

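Gene expression in bulk aorta was read on 12 one-colour Agilent arrays, 3 per group, with groups and replicate numbers taken from the sample labels. The processed signal in the deposited scanner files is a linear intensity for each spot, background-subtracted by Feature Extraction (10.7.1.1 in the file headers, 9.5.1.1 in the submitters' processing notes). A second table, deposited by the authors with intensity values after quantile normalization, served as an alternative. After controls and outlier-flagged spots had been dropped, replicate spots were averaged and log2 signals were set relative to the array's 75th percentile. A probe was kept if well above background (13 times the background SD) on all arrays of at least 1 group (32287 of 55681 probes), and the brightest kept probe stood for a gene. Group means were fitted with limma 3.58.1 (R 4.3.3) and Benjamini-Hochberg adjustment over 22765 genes. The methods state a p and fold rule but no test for these arrays. The number of arrays limits precision. Probe positions and gene names are those of the array design. Upstream sequences were taken from RefSeq and matched by symbol.

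Genes named beside the members were, from each list, those called in a challenge response (the 2 with the smallest p in the mean response where more passed), and for each member the 2 genes with the highest correlation. Other genes of the lists, and Pi16 and Dpt, were picked after their values were seen, and 1 list gene is not reported here. The members and lists were chosen with earlier results of these data known. Scripts were tested on simulated data. Alternatives covered background correction, normalization, dim-probe filters, probe choice, variance moderation, slide, replicate number and each array left out.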

Additional observations from a re-analysis of the deposited data

How the results depend on the processing

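In the mean challenge response, Vcam1 kept its call under 22 of 23 alternatives, Sele, whose unchallenged baseline was below background, under 21 of 22, Selp under 15 of 23 and Selplg under 9 of 23. Each of the 4 kept its direction under all of them. Icam1 gained a call under 6 of 23 and Icam2 under 6 of 23. Of 9 members, limma called 4 in this comparison, 2 without a filter on dim probes, 2 with slide as a block and 2 to 6 with an array left out. The counts over all genes in those settings were 5179, 3385, 4104 and 2522 to 6436. Under the label smSocs3-KO limma called 0 members, against 1 with normexp background correction, 1 with quantile normalization, 1 with the authors' processed values, 1 with trend and robust moderation and 0 to 4 with an array left out. All-gene counts there were 557, against 825, 444, 443, 818 and 42 to 1918. In WT limma called 0 members, against 0 to 2 with an array left out (1065 of all genes, against 0 to 3627). Slide as a block together with leaving out WT day 3 replicate 4 was an alternative chosen after seeing the data. It gave 4 member calls in WT (4953 of all genes) and 3 under the label smSocs3-KO (1212 of all genes). Neither genotype difference nor the interaction gave a member under any alternative. The cause of these changes was not tested.

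Replicate numbers showed no clear pairing of the arrays before challenge with those at day 3. The deviations of same-numbered arrays before challenge and at day 3 correlated at -0.04 and -0.30 in WT and 0.08 under the label smSocs3-KO. Across genotypes, same-numbered arrays ran from -0.40 (replicate 3, WT at day 3 and smSocs3-KO before challenge) to 0.46 (replicate 1, both before challenge). Differently numbered arrays reached 0.48. With the replicate block, members called in the mean response went from 4 to 1 (Sele) and genes called overall from 5179 to 894, with 0 members called in the other comparisons as without it.

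Over all genes, calls ranged over the alternatives from 0 to 4953 in WT (1065 in the report), from 2 to 1918 under the label smSocs3-KO (557), from 894 to 6597 in the mean response (5179), from 0 to 14 between genotypes before challenge (6) and from 0 to 615 at day 3 (253). Signal over background limits Sele, for which no measured fold against the unchallenged arrays can be given. With 3 arrays a group, differences of the size of most intervals here could not be told from 0.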
